A study of Homo sapiens with 8 samples.

Results

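The BCL2 family is described here by 10 of its genes in A549 cells, an established line from a human lung carcinoma. They were taken by symbol: the survival genes BCL2, BCL2L1 and MCL1, the pore-forming genes BAX and BAK1, and the BH3-only genes BID, BCL2L11, PMAIP1, BMF and BIK. All 10 were among the 19046 genes measured and tested, through 16 probes, and 8 of the 10 were well above background on all 8 arrays. The cells were given EEDS, the ethanol extract of Descurainia sophia seeds, at 1.25, 5 or 20 μg/mL, or helveticoside, a cardiac glycoside found in that extract, at 3.75, 15 or 60 nM, and each agent had its own vehicle control. RNA of 3 cultures was pooled for each condition and hybridized to 1 one-colour Agilent array. The groups differed in the agent and dose alone, as far as the labels say, and the model is a single carcinoma line. The sample labels give 48 h of exposure and the methods 24 h. The comparisons ask how this gene family moved with dose, and whether it moved differently with the extract and with the purified glycoside.

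Proteins of the BCL2 family set whether the outer mitochondrial membrane is opened during apoptosis. BAX and BAK1 form the pores, the survival proteins bind and restrain them, and the BH3-only proteins occupy the survival proteins or activate the pore formers, so that the balance between these classes bears on whether a cell dies. MCL1 is known as a short-lived protein made from a short-lived transcript, and the PMAIP1 protein, also called NOXA, is known for binding MCL1. Cardiac glycosides inhibit the sodium pump.

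The promoters of the 3 genes with a dose trend in the same direction under both agents are shown, with BCL2L11 taken by its brightest probe. Each is the 250 bases before the start of the gene in RefSeq on GRCh38.p14, written 5′ to 3′ on the strand of the gene. RefSeq windows were matched for 8 of the 10 genes, and MCL1 and BIK are named only. The PMAIP1 window lies at chr18:59899746-59899995 on the plus strand, the BAK1 window at chr6:33580277-33580526 on the minus strand, and the BCL2L11 window at chr2:111120664-111120913 on the plus strand. Capitals mark matches to 5 short motifs, searched on both strands.
PMAIP1: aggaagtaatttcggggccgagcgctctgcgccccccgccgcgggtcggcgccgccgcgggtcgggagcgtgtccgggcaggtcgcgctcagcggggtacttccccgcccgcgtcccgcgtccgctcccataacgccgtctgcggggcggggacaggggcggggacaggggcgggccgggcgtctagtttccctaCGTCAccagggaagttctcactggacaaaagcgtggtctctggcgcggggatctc
BAK1: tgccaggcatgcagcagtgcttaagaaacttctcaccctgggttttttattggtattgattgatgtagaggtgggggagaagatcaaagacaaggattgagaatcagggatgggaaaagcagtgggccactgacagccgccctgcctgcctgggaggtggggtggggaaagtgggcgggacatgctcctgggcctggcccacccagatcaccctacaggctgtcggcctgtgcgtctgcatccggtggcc
BCL2L11: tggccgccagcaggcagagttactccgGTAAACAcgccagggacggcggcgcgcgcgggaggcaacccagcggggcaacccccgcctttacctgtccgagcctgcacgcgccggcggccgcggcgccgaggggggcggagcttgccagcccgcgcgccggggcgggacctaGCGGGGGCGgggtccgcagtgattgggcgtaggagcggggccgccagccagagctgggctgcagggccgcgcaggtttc

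The motifs were the half-site of the cyclic AMP response element (TGACG), the AP-1 site (TGANTCA), the C/EBP-ATF response element (TGATGNAAN), the FOXO site (TGTTTAC) and the EGR1 site (GCGNGGGCG), and none of them contains another. The PMAIP1 window held 1 half-site of the cyclic AMP response element, read on the opposite strand, 55 to 51 bases before the start. The BCL2L11 window held a FOXO site on the opposite strand, 223 to 217 bases before the start, and an EGR1 site 79 to 71 bases before it. The BAK1 window held none of the 5. Among the 8 genes with a window, 5 held the half-site of the cyclic AMP response element (PMAIP1, BMF, BCL2, BAX and BCL2L1), 1 held a FOXO site, 1 held an EGR1 site and 0 held an AP-1 site or a C/EBP-ATF response element. Counted in the same way, by genes with a match in at least 1 window, 24.9% of the 27305 genes with RefSeq windows held that half-site, 3.66% the FOXO site, 10.1% the EGR1 site, 8.06% the AP-1 site and 3.87% the C/EBP-ATF response element. By windows, 5 of the 14 windows of these genes held the half-site, and 21.2% of all 35116. The G and C content was 72.8% for PMAIP1, 58% for BAK1 and 76.8% for BCL2L11, against a median of 58% over all windows. A match is a description of the sequence, and no binding was measured.

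The scanner software called 63.3% to 64.9% of the probes well above background on the EEDS arrays and 54.5% to 59.5% on the helveticoside arrays. All 5 epithelial markers and all 5 genes known to be high in A549 cells were well above background on all 8 arrays, as was 1 of 6 alveolar type II markers, while 3 of those 6, NKX2-1 among them, were so on no array. Of the markers of other cells, 1 of 3 blood cell genes and 1 of 3 fibroblast genes were well above background on all 8 arrays. CDKN2A, which is known as deleted in A549 cells, went against this: 1 of its 2 probes was well above background on all 8 arrays and the other on none. The vehicle arrays differed from each other with a standard deviation of 0.481 on the log2 scale over the 11498 genes that were so on all arrays, and 4.73% of these genes differed by over 2-fold between them. As each dose had 1 array, no test was possible for a single dose, and ratios at a dose are values only. In bulk RNA, fewer cells that express a gene and less RNA of it per cell cannot be told apart.

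MCL1, PMAIP1 and BAK1 were higher on all 6 treated arrays than on the vehicle array of their series, and BCL2L11 was lower on 5 of the 6. The dose trend, a slope in log2 signal per dose step from limma, passed an adjusted p of 0.05 for MCL1, PMAIP1, BAK1 and BCL2L11 under EEDS and for PMAIP1, BAK1 and BCL2L11 under helveticoside. By role, the survival gene MCL1 (under EEDS) and the pore-forming gene BAK1 rose. Of the BH3-only genes 1 rose (PMAIP1) and 1 fell (BCL2L11, by its brightest probe). Each other role had only 1 called gene, so the roles cannot be compared by direction. Under EEDS, 3 of the 10 genes rose and 1 fell, where 7.27% of all genes rose and 7.85% fell. Under helveticoside, 2 rose and 1 fell, where 5.48% of all genes rose and 5.8% fell. The members were chosen with earlier results of these data known, and the counts are a description.

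**Figure D1:**
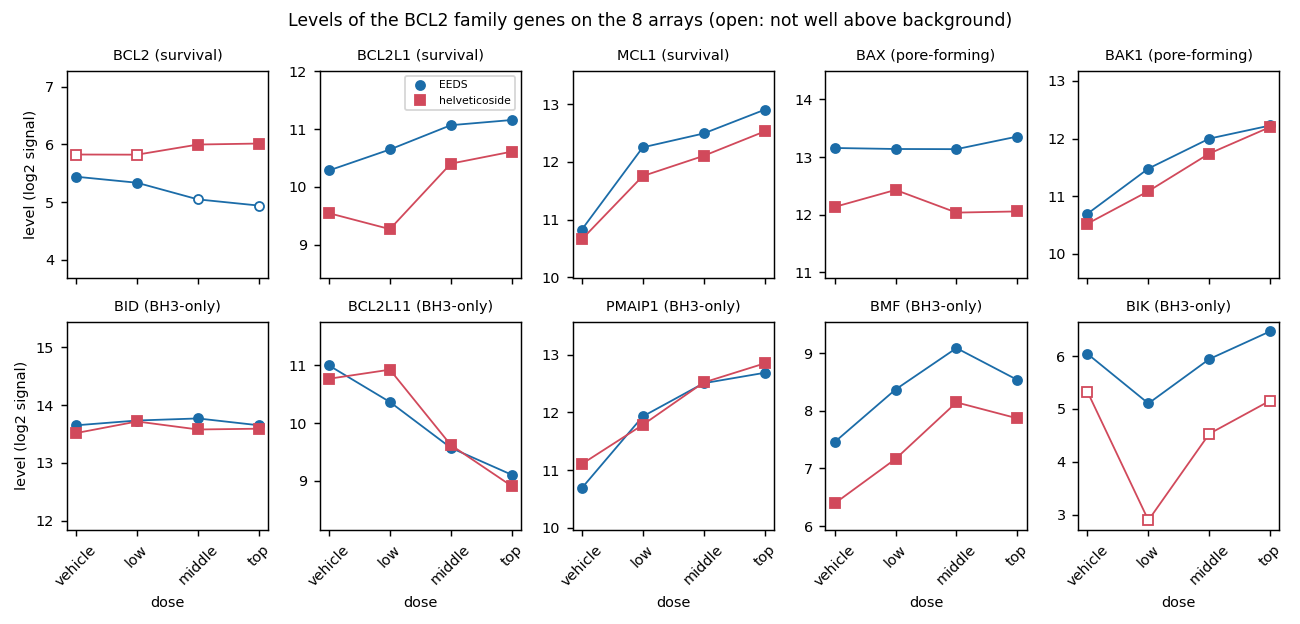
Levels of the 10 genes (log2 of the quantile-normalized signal) on the vehicle array and at the low, middle and top dose of EEDS (circles) and helveticoside (squares), 1 array per point, with open points where the probe was not well above background. MCL1, PMAIP1 and BAK1 were higher at each dose than at the one before in both series, BCL2L11 was lowest at the top doses, and BID stayed between 13.51 and 13.77 on all 8 arrays.

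Among the survival genes, MCL1 had the highest ratios, and of the 10 members it had the highest at the lowest and top doses of both agents. PMAIP1 was above it at 5 μg/mL EEDS and BMF at 15 nM helveticoside. Its log2 level was 10.82 on the EEDS vehicle array and 12.25, 12.49 and 12.90 at 1.25, 5 and 20 μg/mL. In the helveticoside series the level was 10.66 on the vehicle array and 11.75, 12.10 and 12.53 at 3.75, 15 and 60 nM. All treated levels lay above both vehicle levels, and the step from the vehicle to the lowest dose was the longest in both series. MCL1 was 2.68-, 3.17- and 4.22-fold higher over the EEDS doses and 2.14-, 2.73- and 3.65-fold higher over the helveticoside doses. At the top dose 97.2% (EEDS) and 97.4% (helveticoside) of the 11498 genes had a lower ratio. The EEDS slope was 0.65 ± 0.14 (SE) per step, with an adjusted p of 0.0373 by limma. The helveticoside slope was 0.60 ± 0.14 (SE), with an adjusted p of 0.0526, which missed the threshold. The EEDS call was lost without the EEDS vehicle, middle or top array (slopes 0.33, 0.64 and 0.83, adjusted p 0.255, 0.0694 and 0.159) and without the low, middle or top helveticoside array (adjusted p 0.0568, 0.0830 and 0.0664), which lend it their spread. Without the EEDS vehicle or top array, 0 of all 19046 genes passed for EEDS. The helveticoside trend passed under 6 of 22 alternatives, with an adjusted p of 0.0161 among genes well above background on every array.

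BCL2L1, which encodes the survival protein BCL-XL, lay at log2 levels of 10.28, 10.65, 11.07 and 11.16 from the vehicle to the top dose of EEDS. Under helveticoside it lay at 9.54, 9.27, 10.40 and 10.61. The lowest helveticoside dose was below its vehicle array, and the middle and top doses of both agents were above theirs. The top-dose ratio was 1.83-fold for EEDS and 2.09-fold for helveticoside. The slopes were 0.30 ± 0.12 (SE) and 0.43 ± 0.12 (SE), with adjusted p of 0.147 and 0.0782 by limma, and neither passed. This gene was read from 10 spots of 1 probe, whose standard deviation within an array was at most 0.0557 on the log2 scale, so the spread between spots was small beside these ratios. The spread between spots does not measure that between cultures.

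BCL2 itself, the founding survival gene, was close to background. Its brighter probe gave log2 levels of 5.44, 5.34, 5.05 and 4.94 over the EEDS arrays and 5.83, 5.82, 6.0 and 6.02 over the helveticoside arrays. It was well above background on 4 of the 8 arrays, the first 2 of the EEDS series and the last 2 of the helveticoside series. Its other probe, read from 10 spots, was well above background on no array. As bounds, BCL2 was at least 1.41-fold lower at 20 μg/mL EEDS and at least 1.14-fold higher at 60 nM helveticoside. The slopes, -0.18 ± 0.07 (SE) and 0.07 ± 0.07 (SE), did not pass, with adjusted p of 0.160 and 0.614 by limma.

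Of the pore-forming genes, BAK1 rose under both agents, and BAX passed under neither. BAK1 lay at log2 levels of 10.70, 11.48, 12.00 and 12.23 over the EEDS arrays. Under helveticoside it lay at 10.53, 11.09, 11.74 and 12.20. Each dose was above the one before it in both series, and the treated levels did not overlap with the vehicle levels. BAK1 was 1.72-, 2.46- and 2.89-fold higher over the EEDS doses and 1.48-, 2.32- and 3.19-fold higher over the helveticoside doses. The slopes were 0.51 ± 0.07 (SE) for EEDS and 0.57 ± 0.07 (SE) for helveticoside, with adjusted p of 0.0156 and 0.0177 by limma. BAK1 had the smallest SE of the 4 genes with a trend. The EEDS call was lost without the EEDS vehicle or top array (slopes 0.37 and 0.65, adjusted p 0.123 and 0.119), and the helveticoside call without the helveticoside vehicle, middle or top array (slopes 0.56, 0.56 and 0.61, adjusted p 0.0765, 0.0625 and 0.268). Of all 19046 genes, 0 passed for EEDS without the EEDS vehicle or top array. For helveticoside, 0 passed without the helveticoside middle or top array.

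The BAX probe with the higher signal, read from 10 spots, gave log2 levels of 13.16, 13.14, 13.14 and 13.35 over the EEDS arrays and 12.14, 12.43, 12.04 and 12.06 over the helveticoside arrays. The levels within each series spanned less than the gap of -1.02 between the vehicle arrays (helveticoside minus EEDS). The slopes were 0.06 ± 0.07 (SE) and -0.06 ± 0.07 (SE), with adjusted p of 0.658 in both. The other BAX probe, annotated to another RefSeq transcript, gave log2 ratios of -0.01, 0.35 and 0.85 over the EEDS doses and 0.75, 0.70 and 1.18 over the helveticoside doses. At the top dose the probes differed by 0.66 under EEDS and by 1.25 under helveticoside on the log2 scale. With this second probe the helveticoside slope of BAX was 0.35 and the adjusted p 0.0695, so BAX passed with neither probe, and the sign of its helveticoside slope depended on the probe.

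**Figure D2:**
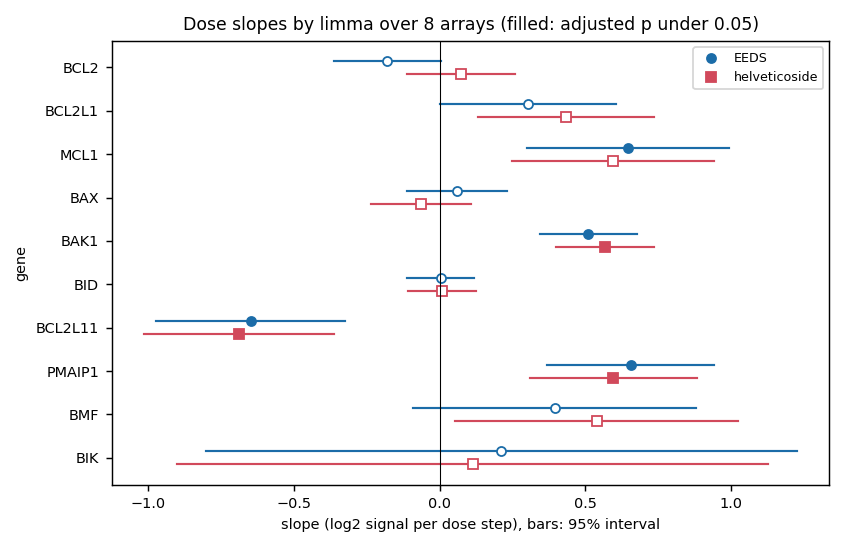
Slopes of the 10 genes (log2 signal per dose step, with the 95% interval) under EEDS (circles) and helveticoside (squares), from limma over the 8 arrays, filled where the adjusted p was under 0.05. The EEDS slopes of MCL1, BAK1 and PMAIP1 lay between 0.51 and 0.66 and that of BCL2L11 at -0.65, and the intervals of the agents overlap for every gene.

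PMAIP1, the BH3-only gene that encodes NOXA, lay at log2 levels of 10.69, 11.93, 12.50 and 12.68 over the EEDS arrays. Under helveticoside the levels were 11.10, 11.78, 12.52 and 12.85. Both series climbed at each dose, and all treated levels lay above both vehicle levels. PMAIP1 was 2.36-, 3.52- and 3.99-fold higher over the EEDS doses and 1.60-, 2.66- and 3.35-fold higher over the helveticoside doses. The slopes were 0.66 ± 0.11 (SE) and 0.60 ± 0.11 (SE), with adjusted p of 0.0245 and 0.0348 by limma. The EEDS call was lost without the EEDS vehicle or top array (slopes 0.38 and 0.91, adjusted p 0.147 and 0.119) and without the low or middle helveticoside array (adjusted p 0.05003 and 0.0589). The helveticoside call was lost without any 1 of the 4 helveticoside arrays (slopes 0.53 to 0.71, adjusted p 0.0760 to 0.269) and without the low or middle EEDS array (adjusted p 0.0542 and 0.0591). Over all 19046 genes, 0 passed for EEDS without the EEDS vehicle or top array, and 0 for helveticoside without its middle or top array. MCL1, the partner its protein is known to bind, stood beside it at 4.22-fold under 20 μg/mL EEDS.

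BCL2L11, which encodes the BH3-only activator BIM, was the 1 of the 10 members that fell. Its brightest probe gave log2 levels of 11, 10.37, 9.57 and 9.11 over the EEDS arrays. Under helveticoside the levels were 10.77, 10.93, 9.62 and 8.91. The lowest helveticoside dose was slightly above its vehicle array, and every other treated level was below both vehicle levels. At the top dose BCL2L11 was 3.71-fold lower under EEDS and 3.63-fold lower under helveticoside. The slopes were -0.65 ± 0.13 (SE) and -0.69 ± 0.13 (SE), with adjusted p of 0.0323 and 0.0335 by limma. The EEDS call was lost without any 1 of the 4 EEDS arrays (slopes -0.71 to -0.63, adjusted p 0.0615 to 0.192) and without the middle or top helveticoside array (adjusted p 0.0737 and 0.0595). The helveticoside call was lost without the middle or top helveticoside array (slopes -0.67 and -0.57, adjusted p 0.0826 and 0.317) and without any 1 of the 4 EEDS arrays (adjusted p 0.0555 to 0.0684). Among all 19046 genes, 0 passed for EEDS without the EEDS vehicle or top array, and 0 for helveticoside without its middle or top array.

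The 3 BCL2L11 probes, all well above background on all 8 arrays, did not give 1 answer. A second probe had top-dose log2 ratios of -1.32 under EEDS and -1.15 under helveticoside, with the same direction at the middle doses. The third gave -0.42 and 0.17 and stayed within -0.04 and 0.33 at the lower doses of both agents. At the top dose the probes thus spanned 1.47 under EEDS and 2.03 under helveticoside on the log2 scale. With the second probe the adjusted p was 0.0666 for EEDS and 0.0714 for helveticoside, and with the third 0.268 and 0.578, so neither passed alone. With the mean of the 3 probes the EEDS trend passed (slope -0.41, adjusted p 0.0369) and the helveticoside trend did not (-0.36, 0.0557). The probe with top-dose ratios of -0.42 and 0.17 and that with -1.32 and -1.15 are annotated to the same RefSeq transcript. The brightest probe is annotated to another. BCL2L11 is known for many splice forms, and which of them each probe reads was not tested.

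**Figure D3:**
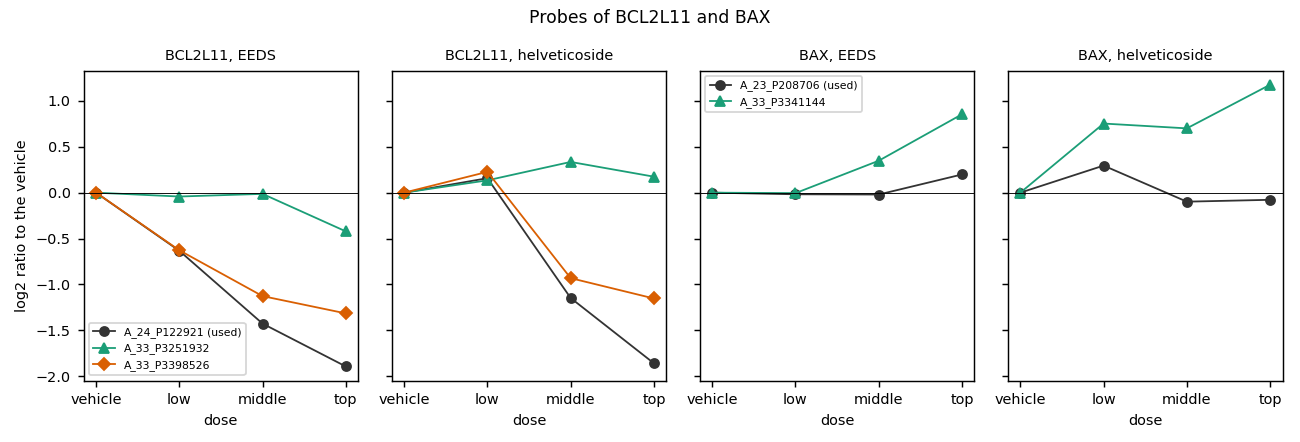
Log2 ratios to the vehicle array of the same series for the 3 probes of BCL2L11 and the 2 probes of BAX at each dose of EEDS and helveticoside, 1 array per point. Of the BCL2L11 probes 2 were over 2-fold lower at the top dose of both agents and the third was not, and the dimmer BAX probe reached 0.85 and 1.18 while the brighter stayed between -0.10 and 0.29.

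BMF, a BH3-only gene whose protein is known to be held at the cytoskeleton, was highest at the middle dose in both series by its brighter probe. Its log2 levels were 7.46, 8.37, 9.09 and 8.53 over the EEDS arrays and 6.39, 7.17, 8.14 and 7.87 over the helveticoside arrays. All treated levels of a series were above its vehicle level, but the vehicle arrays differed by -1.06 (helveticoside minus EEDS), a gap within the range of its ratios to the vehicle. BMF was 3.09-fold higher at 5 μg/mL EEDS and 3.36-fold higher at 15 nM helveticoside, and 2.11- and 2.78-fold higher at the top doses. The slopes of 0.39 ± 0.19 (SE) and 0.54 ± 0.19 (SE) did not pass, with adjusted p of 0.225 and 0.135 by limma. The second BMF probe was well above background on the middle and top helveticoside arrays alone, where it was at least 1.24- and 1.32-fold higher, highest at the top dose. With 1 array a dose, the peak at the middle dose has no test.

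BID, the BH3-only protein that links death receptors to mitochondria, kept log2 levels of 13.65, 13.73, 13.77 and 13.65 over the EEDS arrays and 13.51, 13.71, 13.58 and 13.59 over the helveticoside arrays. Its slopes were 0.004 ± 0.05 (SE) and 0.009 ± 0.05 (SE), and the 95% intervals, -0.11 to 0.12 and -0.11 to 0.13, left out changes of over 0.13 per step. Its second probe gave top-dose log2 ratios of 0.06 and 0.03, beside 0.00014 and 0.08 for the first.

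BIK, another BH3-only gene, was well above background on the 4 EEDS arrays and on none of the helveticoside arrays. Its log2 levels there were 6.05, 5.11, 5.95 and 6.47, with the lowest dose below the vehicle array and the top dose above it. On the helveticoside arrays BIK was not well above background and is given no ratio. The EEDS slope of 0.21 ± 0.41 (SE) had an adjusted p of 0.847 by limma.

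Counted by size, each dose was set against its vehicle over the genes well above background on both of these arrays. At 1.25 μg/mL EEDS 2 of 10 members were more than 2-fold higher (MCL1 and PMAIP1), where 3.74% of all such genes were, and 0 were more than 2-fold lower, where 3% of all were. At 5 μg/mL 4 of 9 were more than 2-fold higher and 1 lower, against 7.6% and 8.3% of all genes. At 20 μg/mL the counts were again 4 and 1 of 9, against 15% and 15.9%. Under helveticoside, 1 of 8 was more than 2-fold higher at 3.75 nM (MCL1) and 0 lower, against 1.24% and 1.19% of all genes. At 15 nM 4 of 8 were higher and 1 lower, against 5.52% and 6.7%, and at 60 nM 5 of 8 were higher and 1 lower, against 11% and 13%. The genes past 2-fold at the top dose of both agents were MCL1, PMAIP1, BAK1, BMF and, downwards, BCL2L11, while BCL2L1 was 2.09-fold higher under helveticoside and 1.83-fold under EEDS. Over all 10 genes, whatever their signal, the median log2 ratio was 0.22, 0.45 and 0.65 over the EEDS doses. Over the helveticoside doses it was 0.25, 0.52 and 0.63. The median over all genes lay between -0.04 and 0.02 at every dose of both agents. Unlike the counts, these medians include BCL2 and BIK, which were not well above background on every array.

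**Figure D4:**
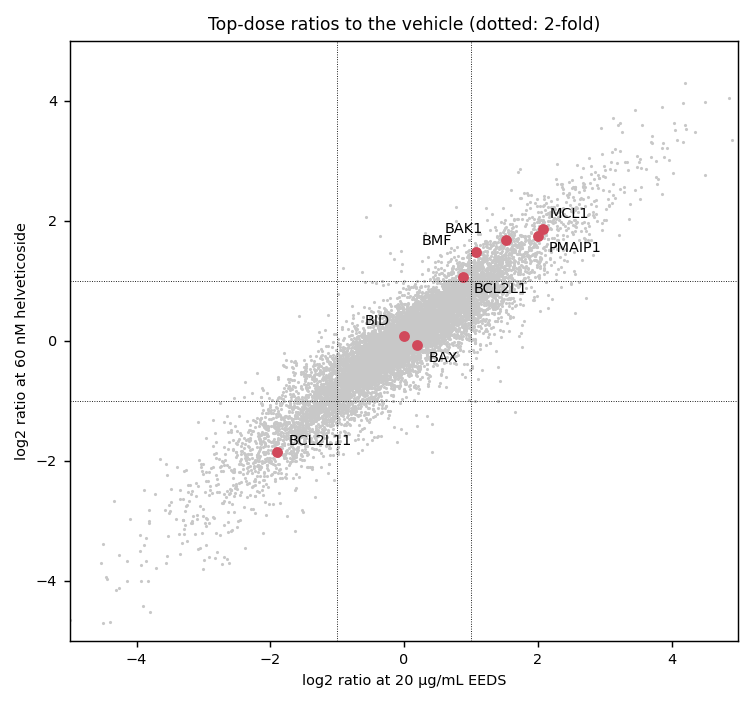
Log2 ratio to the vehicle at 20 μg/mL EEDS (horizontal) and 60 nM helveticoside (vertical) for 11498 genes, each well above background on every array (grey), and for the 8 BCL2 family genes among them (red), with dotted lines at 2-fold and 12 grey genes outside the axes. MCL1, PMAIP1, BAK1 and BMF lie in the upper right corner, BCL2L11 in the lower left, and BID and BAX near the centre.

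The lowest dose already carried much of the change of MCL1. Its log2 ratio at 1.25 μg/mL EEDS was 68.6% of that at 20 μg/mL, and at 3.75 nM helveticoside 58.7% of that at 60 nM. For PMAIP1 the shares were 62.1% and 38.9%, and for BAK1 51.2% and 33.6%. Among all genes, those that rose with a trend and were past 2-fold at the top dose had a median share of 37.0% for EEDS (quartiles 24.9% and 48.1%, 911 genes) and 21.2% for helveticoside (quartiles 10.8% and 31.0%, 664 genes). All 3 genes were above the upper quartile under both agents. MCL1 had no trend call under helveticoside (adjusted p 0.0526 by limma), so it is not among the 664 genes. The genes of both sets were chosen by a straight-line fit, which favours shares that grow evenly by step. Their quartiles are therefore not a neutral reference for an early rise. BCL2L11 was at 33.4% under EEDS, near the median of 31.9% over the genes that fell, and its ratio at 3.75 nM helveticoside had the opposite sign. These shares have no replicates and no test, and they share the vehicle array with the ratios they divide.

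The slopes of the agents were then compared in the same fit. Doses of EEDS are by mass and those of helveticoside by amount, so a step of one is not matched to a step of the other. The difference in slope (helveticoside minus EEDS) passed for 0 of 19046 genes (0% called) by limma, with 525 at an unadjusted p under 0.05 and 0 of the 10 family genes among them. It was -0.05 for MCL1 (95% interval -0.54 to 0.44), -0.06 for PMAIP1 (-0.47 to 0.34), 0.06 for BAK1 (-0.18 to 0.29) and -0.04 for BCL2L11 (-0.50 to 0.42). The largest difference relative to its error was that of BCL2, 0.25 (-0.01 to 0.51), a gene near background. The intervals are wide beside slopes of about 0.6, so differences of moderate size were not detectable with these arrays.

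Of the 11498 genes, those with ratios nearest to MCL1 over the 6 treated arrays were LINC00938, YOD1 and CLK4, at Euclidean distances of 0.327, 0.480 and 0.502 on the log2 scale. LINC00938 is a noncoding RNA gene, YOD1 encodes a deubiquitinase and CLK4 a kinase of splicing factors. The top-dose log2 ratios of these 3 were 1.87, 2.18 and 2.31 under EEDS and 1.67, 2.10 and 2.05 under helveticoside, beside 2.08 and 1.87 for MCL1. Nearest to BCL2L11 were CHST12, BCKDK and PXYLP1, at distances of 0.237, 0.285 and 0.346. CHST12 encodes a chondroitin sulfotransferase and BCKDK the kinase of the branched-chain ketoacid dehydrogenase. Their top-dose log2 ratios lay between -2.09 and -1.94 under EEDS and between -1.97 and -1.85 under helveticoside.

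The counts of 4 further lists stand beside the shares over all genes, 7.27% rising and 7.85% falling with EEDS and 5.48% and 5.8% with helveticoside. Of 15 other genes listed with the BCL2 family, 3 rose and 1 fell with EEDS and 3 rose and 0 fell with helveticoside, with a median top-dose log2 ratio of 0.74 and 0.38. This list includes the BNIP genes, which are named for interacting with BCL2 and are not all family members. BBC3, the BH3-only gene that encodes PUMA, lay at log2 levels of 11.30, 12.53, 13.80 and 14.91 over the EEDS arrays and 11.15, 12.03, 13.32 and 14.02 over the helveticoside arrays, and climbed at each dose. Its slopes of 1.21 ± 0.06 (SE) and 0.99 ± 0.06 (SE) had adjusted p of 0.00783 and 0.0150 by limma, and exceeded those of all 10 genes above. HRK, a further BH3-only gene, was not well above background on either vehicle array and was at least 5.87- and 7.29-fold higher at 5 and 20 μg/mL EEDS and at least 2.33- and 3.97-fold higher at 15 and 60 nM helveticoside. Its trend passed under helveticoside (adjusted p 0.0305) and not under EEDS (0.0620).

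BNIP1 rose under both agents, with top-dose log2 ratios of 1.57 and 1.38 and adjusted p of 0.0145 and 0.0195 by limma. BNIP2 rose under EEDS, by 1.74 at the top dose (adjusted p 0.0202), with 1.12 under helveticoside (0.0512). BNIP3, a mitophagy receptor, fell under EEDS, at -1.17 (adjusted p 0.0315), with -0.86 under helveticoside (0.0509). Further genes were past 2-fold at a top dose without a trend call. BOK, a pore former related to BAX and BAK1, had log2 ratios of -1.50, -1.28 and -1.39 over the EEDS doses, largest at the lowest. Over the helveticoside doses its ratios were -0.95, -1.29 and -1.35, largest at the top. BCL2L13 reached 1.34 and 1.08, and BCL2L2, the survival gene for BCL-W, 0.90 and 1.12. BCL2L10 reached 1.12 under EEDS from a level near background on the vehicle array.

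**Figure D5:**
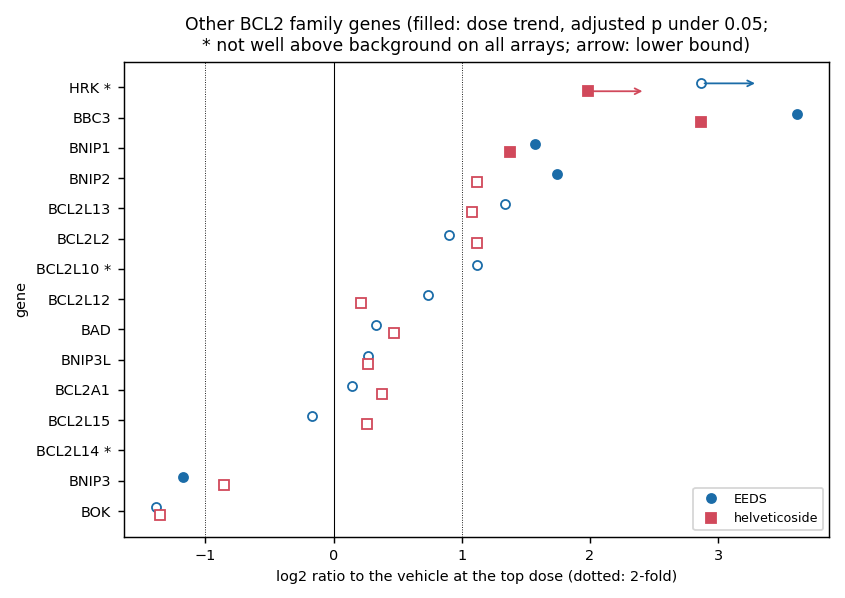
Log2 ratio to the vehicle at the top dose of EEDS (circles) and helveticoside (squares) for 15 other genes listed with the BCL2 family, filled where the dose trend had an adjusted p under 0.05, with an asterisk where the probe was not well above background on all 8 arrays. Arrows mark lower bounds, and genes below background on both arrays of a ratio have no point. BBC3 stands at 3.62 and 2.87, HRK at its bounds of 7.29- and 3.97-fold, and BOK at -1.39 and -1.35.

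Of 14 mitochondrial apoptosis effectors, which act after the pores, 1 rose and 2 fell with EEDS and 1 rose and 1 fell with helveticoside, and the median top-dose log2 ratio was 0.07 and 0.01, where that of all genes was 0.02 and -0.004. These counts are near the shares over all genes. CYCS, the gene for cytochrome c, rose under EEDS with a top-dose log2 ratio of 1.16 (adjusted p 0.0321 by limma), and had 0.73 under helveticoside (0.101). APAF1, the scaffold of the apoptosome, rose under helveticoside at 1.17 (adjusted p 0.0394), with 0.81 under EEDS (0.0887). VDAC3, a channel of the outer mitochondrial membrane, fell under both agents, at -1.88 and -1.66 (adjusted p 0.0132 and 0.0177). CASP6, an executioner caspase, fell under EEDS at -2.11 (adjusted p 0.0338) and had -1.78 under helveticoside (0.0511). ENDOG was past 2-fold at 20 μg/mL EEDS without a trend call, at -1.16.

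Of 8 genes known to act on the turnover or the holding of MCL1 and BH3-only proteins, 1 rose and 2 fell with EEDS and 2 rose and 1 fell with helveticoside, with a median top-dose log2 ratio of 0.28 and 0.31. USP9X, the deubiquitinase known to stabilise MCL1, fell under both agents, with log2 ratios of -0.98, -2.00 and -2.26 over the EEDS doses and -0.55, -2.19 and -2.80 over the helveticoside doses (adjusted p 0.0216 and 0.0189 by limma). FBXW7, which marks MCL1 for degradation, rose under EEDS to a top-dose log2 ratio of 2.10 (adjusted p 0.0332) and had 1.17 under helveticoside (0.123). HUWE1, another ligase of MCL1, fell under EEDS at -0.82 (adjusted p 0.0341) and had -0.61 under helveticoside (0.0693). BTRC rose under helveticoside at 0.98 (adjusted p 0.0363), with 0.78 under EEDS (0.0528). TRIM17 passed under helveticoside (adjusted p 0.0415) but was well above background on 1 array alone, where it was at least 1.35-fold higher than on the vehicle array. These are transcript levels, and no protein was measured.

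Of 10 transcription factors known for BCL2 family targets, 1 rose and 0 fell with EEDS and 0 passed with helveticoside, with a median top-dose log2 ratio of 0.58 and 0.45. DDIT3, which encodes CHOP, rose under EEDS with log2 ratios of 1.32, 2.50 and 4.79 (adjusted p 0.0356 by limma). Under helveticoside it was at least 1.61-fold lower at 3.75 nM, where it was not well above background, and had log2 ratios of 2.57 and 3.02 at 15 and 60 nM, with an adjusted p of 0.0710. ATF4, its known activator, had 0.63, 0.65 and 1.04 over the EEDS doses and -0.09, 0.58 and 0.49 over the helveticoside doses (adjusted p 0.0601 and 0.156). RELA reached 1.15 and 1.21 at the top doses (adjusted p 0.0604 and 0.0600), and STAT3 1.12 and 0.98 (0.0890 and 0.136).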

How the data were processed

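RNA pooled from 3 cultures of A549 cells per condition was hybridized to 8 one-colour Agilent arrays of 44495 spots, 1 per condition. The scanner files that the authors deposited hold intensity values for every spot (median signal, local background and background-subtracted processed signal), with calls coded 0 or 1 for outliers, saturation and being well above background. A second file the authors deposited holds their own processed intensity values and served as an alternative. Scanner and software versions are not given in the sources used here.

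Control spots and outlier spots (246 to 331 per array) were dropped. Processed signals were averaged per probe and quantile-normalized over all 8 arrays. Where the signal of a probe was under 1.4 times the background, its value was raised to at least the lowest detected value of that array. The values were then log2-transformed. Probe spots had a median signal of 182 to 278 per array over a local background of 27 to 34, and 0 were saturated. Of 34105 probes, 24812 were matched to 19056 genes of GRCh38.p14, and the probe with the highest mean stood for its gene. Genes with a signal of at least 1.4 times the background on 1 array of each series were tested, which kept 19046.

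Dose trends were fitted with limma 3.58.1 (R 4.3.3, statmod 1.5.0, trend and robust estimation). The model held, for each series, an intercept and a slope on the dose step, which left 4 residual degrees of freedom over the 8 arrays, and both series shared 1 estimate of the spread. Adjusted p is by the Benjamini-Hochberg procedure over all genes, with a threshold of 0.05. This spread is that of single arrays of pooled RNA about straight lines, and it does not measure the spread between cultures. The fit was tested on simulated data. A level not well above background is given as a bound. Nearest genes are by Euclidean distance over the 6 log2 ratios. Figures and tables were made with Python 3.11.15, pandas 2.3.3, numpy 2.4.6 and matplotlib 3.10.9.

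The members, the lists and the tests were chosen with earlier results of these data known. Named were all 10 members. Of the other lists, the genes with a trend in either series, those past 2-fold at a top dose and the 2 with the largest mean top-dose ratio were named, and of all genes the 3 nearest to the highest and to the lowest member. Some genes of the lists are counted but not reported singly here. The alternatives were other background corrections, normalizations, filters, probes, doses, dose codings, moderation and vehicle arrays, and, chosen after seeing the data, leaving out each array in turn. No slide or scan information was used here, so a batch other than the series was not examined, and the series and the agent cannot be told apart.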

Additional observations from a re-analysis of the deposited data

How the results depend on the processing

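The direction of the slopes of MCL1, PMAIP1, BAK1, BCL2L1 and BMF was kept under all alternatives run. The trend calls were less stable. No paired analysis was possible because each condition had 1 array. By limma, 4 genes passed for EEDS and 3 for helveticoside, and 0 passed for either when only the 4 arrays of 1 series were fitted (5 and 6 at an unadjusted p under 0.05), with any dose set against the vehicle (3 and 3), and without the lowest (5 and 5), middle (4 and 5) or top dose (5 and 4) of each series, where fewer arrays or another line were fitted. For helveticoside 5 genes passed with the median signal as scanned, 5 with normexp and 5 among genes well above background on all arrays, MCL1 and BCL2L1 being the gains. The calls over all genes were also more in these settings, at 2585, 2644 and 2774. The last is of 11498 genes, and the main fit called 2147 of 19046. Leaving out 1 array in turn gave 0 to 4 for EEDS, with 0 without the EEDS vehicle or top array, 1 without the helveticoside middle array and 2 without the EEDS middle or the helveticoside top array. It gave 0 to 3 for helveticoside, with 0 without the helveticoside middle or top array and 1 without the EEDS low, EEDS middle or helveticoside vehicle array. Of all 19046 genes, 0 passed for EEDS without the EEDS vehicle or top array, and 892 without the helveticoside middle array. Without the EEDS middle array 2165 passed for EEDS, and without the helveticoside top array 1838. For helveticoside, 0 of all genes passed without the helveticoside middle or top array. The counts were 675, 739 and 469 without the EEDS low, EEDS middle and helveticoside vehicle arrays. The cause was not tested. Over all genes, 2879 trends passed for EEDS and 2147 for helveticoside, with 4600 and 1657 from the authors' processed table, 98 and 108 for any dose, 0 in the other settings with no member called, and 0 to 2625 and 0 to 1479 without 1 array. The difference of the slopes passed for 0 family genes throughout. With scaling to the 75th percentile, the median log2 ratio of all genes was -0.20, -0.21 and -0.36 over the EEDS doses. Over the helveticoside doses it was 0.14, -0.12 and -0.18. With quantile normalization these medians lay between -0.04 and 0.02.

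Slopes that changed sign were those of flat or dim genes, and that of BCL2L11 with its flat probe. With this probe the helveticoside slope of BCL2L11 was 0.072 and its top-dose log2 ratio 0.17. For BCL2 the helveticoside slope was -0.0074 with 75th percentile scaling and -0.029 with the other probe. For BAX it was 0.013 with 75th percentile scaling, 0.040 for any dose, 0.14 as the mean of its probes and 0.35 with the other probe, and the EEDS slope was -0.010 without the top dose. For BID the helveticoside slope was -0.0058 as scanned, -0.0061 with normexp, -0.0058 with the other probe and -0.0062 with the authors' processed table, and the EEDS slope was -0.015 with that table and -0.0059 without the middle dose. For BIK the helveticoside slope was -0.016 with 75th percentile scaling, -1.13 for any dose, -0.036 as scanned, -0.041 with normexp, -0.033 with the authors' table, -0.10 without the lowest dose and -0.40 without the top dose, and the EEDS slope was -0.20 for any dose and -0.049 without the top dose. Over the arrays left out in turn, the EEDS slopes spanned -0.010 to 0.11 for BAX, -0.041 to 0.059 for BID and -0.049 to 0.68 for BIK, and the helveticoside slopes -0.062 to 0.031 for BID and -0.40 to 1.13 for BIK.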
